A study of Rattus norvegicus with 5 samples.

Results

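RNA was measured in cultured smooth muscle cells from rat vessels, which form the contractile layer of the vessel wall. The members are nuclear-encoded subunits of the mitochondrial respiratory chain and of ATP synthase. They were chosen by gene symbol alone (symbols beginning Nduf with a subunit letter and number, Sdha to Sdhd, Uqcr, Cox5 to Cox8 with a subunit letter, and Atp5), without Ndufa4, Ndufa4l2 and the assembly factors. Of 76 matching rows, Cox8b and Cox6c-ps1 were listed at 0 in every library, which left 74 members among 13397 genes with a value above 0. There are 33 for complex I, 4 for complex II, 8 for complex III, 12 for complex IV and 17 for ATP synthase, called complex V here. The libraries are 5, and each is its condition's only one: hypoxia for 24 h after pretreatment with In-Cl, an indazole tested as an estrogen receptor agonist (0.1 µM), with DPN, a diarylpropionitrile that prefers estrogen receptor beta (0.1 µM), or with E2, the natural hormone estradiol (10 nM); hypoxia for 24 h alone; and an untreated control. No source used here gives the oxygen level, the vessel, the age and strain of the rats, or whether the libraries come from separate cultures. With 1 library per condition there is no replicate check, so no p-value is given, and each statement compares libraries, not conditions.

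Complexes I to IV pass electrons from NADH and succinate to oxygen, complexes I, III and IV pump protons across the inner mitochondrial membrane as they do so, and complex V uses the returning protons to make ATP. Complex I takes electrons from NADH, complex II from succinate, complex III hands them to cytochrome c and complex IV to oxygen. Mitochondrial DNA encodes the hydrophobic core of complexes I, III, IV and V, and the nuclear genes described here supply many of the other subunits. Some nuclear subunits, such as Ndufab1, Cyc1 and Cox4i1, fall outside the symbol rule. Others that it would match, such as Cox6b1, Ndufa3 and Ndufa13, had no row under these symbols. Values by complex therefore do not cover whole complexes. In cells short of oxygen, respiration is known to be lowered while glycolysis is raised, and several subunits have isoforms whose use differs between tissues or oxygen levels.

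The deposited values are log2 of an adjusted read count plus 1, and linear values below are these adjusted reads. Their sums per library lay between 20663687 and 22837695, or 19973761 to 25261231 approximate reads once the value worth 1 read is divided out. Smooth muscle markers were abundant, with 333716 to 411637 reads summed over 10 genes in the hypoxic libraries and 449253 in control. Most of these were reads of Acta2, Cald1, Tagln and Tpm2. Myh11 had only 265 to 287 reads in the hypoxic libraries and 311 in control, and Des 20 to 31, against 5. The 8 striated muscle markers summed to 960 to 1235 reads in the hypoxic libraries, against 1672 in control, most of them Myh2. The defining endothelial genes Kdr and Cdh5, the leukocyte genes Itgam and Cd3e and the adipocyte gene Adipoq had 0 reads in every library. The 6 leukocyte markers summed to 43 to 62 reads in the hypoxic libraries, against 43 in control, most of them Csf1r, Cd68 and Ptprc, and the 4 adipocyte markers to 2 to 5 reads, against 2. The 6 endothelial markers summed to 347 to 450 reads in the hypoxic libraries, against 320 in control, nearly all of them Tek. The 4 epithelial markers summed to 436 to 546 reads in the hypoxic libraries, against 271 in control, nearly all of them Krt8. The fibroblast list summed to 238583 to 289675 reads in the hypoxic libraries, against 279918 in control, nearly all of them Col1a1, a collagen that smooth muscle also makes. The part of these markers in the results was not tested. All 9 detected genes of a hypoxia response list were at least 1.2-fold higher in hypoxia than in control, against 15.7% of the 6699 rows counted below. The list was chosen with earlier results of these data known. Slc2a1, a glucose transporter, was at a log2 difference of 3.17.

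Differences below are differences of the deposited log2 values between 2 libraries. Counts cover the 6699 rows with the highest mean over all 5 libraries (a mean of at least 310.5 adjusted reads), among which 70 of the 74 members stood. A member is counted as lower or higher from a 1.2-fold difference, which is 0.26 on the log2 scale. Intervals are 95% exact counting intervals from approximate reads, and they cover counting error only, not the spread between cultures. The 70 members had between 309 and 23703 reads in a library.

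Across the 5 libraries the members moved by small amounts and mostly in the same order. The range over libraries had a median of 0.34 log2 units for the members, the same as for all tested rows. The control was the highest of the 5 libraries for 50 of 70 members, against 41.8% of all tested rows, and the lowest for 4 of 70 (Cox7a2l, Ndufa1, Ndufa6 and Ndufv3), against 30.6%. The In-Cl library was the lowest for 59 of 70, against 29.3% of all tested rows. Hypoxia alone was the lowest for 0, against 16.7% of all tested rows, and the highest for 13 (18.6%), which is near the 14.4% of all tested rows.

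**Figure D1:**
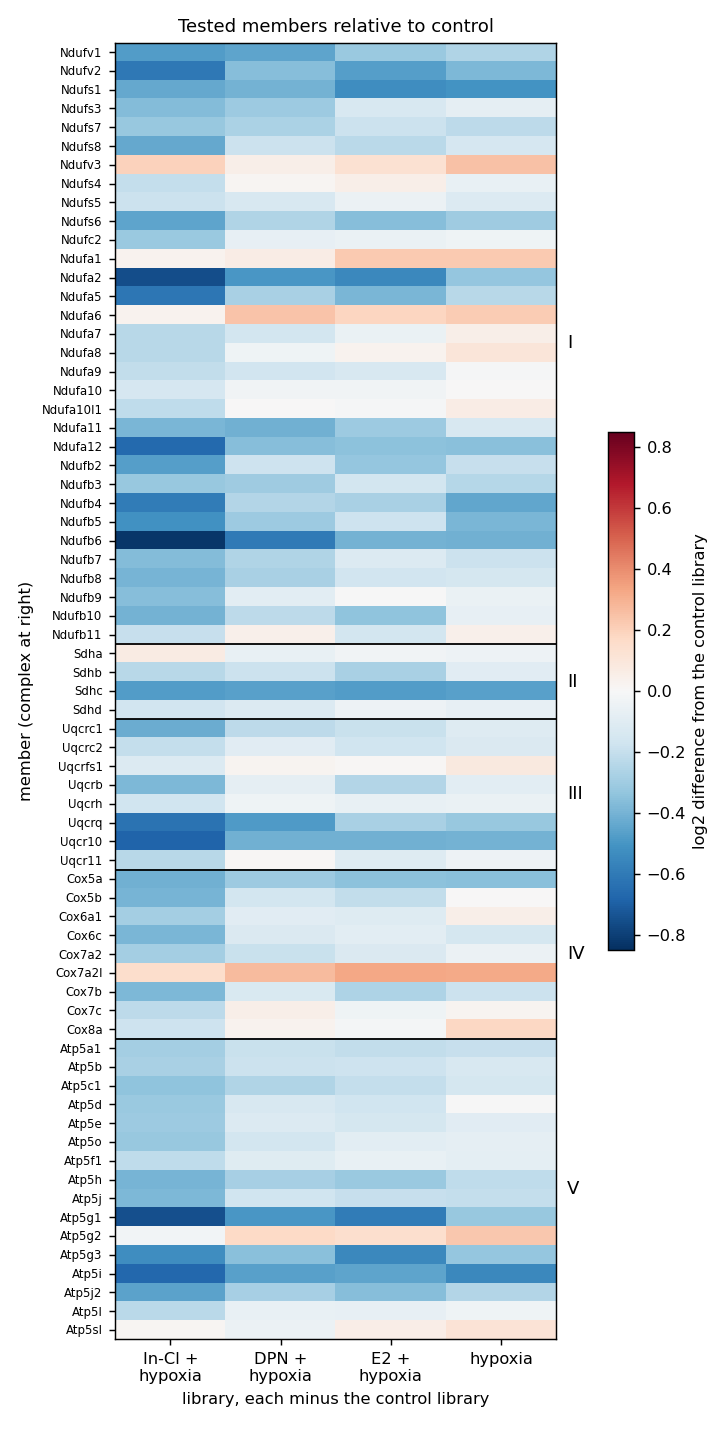
Log2 difference of 69 of the 70 tested members (rows, grouped by complex) between each hypoxic library and the control library (columns). Blue marks values below the control and red above it; the In-Cl column is the darkest, Sdhc is alike in all 4 columns, and Cox7a2l is the reddest row.

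In hypoxia against control, the question is how 24 h of low oxygen changes the RNA for the respiratory chain. The members were slightly lower in hypoxia, with a median difference of -0.10, beside -0.045 over all tested rows, so the members lay 0.06 below the general median. Of 70 members 53 were below 0 (75.7%), against 56.2% of all tested rows. A 1.2-fold lower level was seen for 15 members (21.4%), which is the background share of 21.9%, and only 1 was at least 1.2-fold higher, against 15.7% of all tested rows. The members thus had a usual number of lower genes and few higher ones. In bulk RNA, fewer cells of a type and less RNA per cell cannot be told apart. Dividing by library sums instead lowers every difference between hypoxia and control by 0.14, and the members then have a median of -0.25 with 34 lower by 1.2-fold, against 39.5% of all tested rows under that scaling, while the distance to the general median is unchanged by such a shift. Members between 0 and 0.14 in hypoxia, such as Uqcrfs1 and Cox6a1, then lie below 0, and Cox7a2l is still above 0 but no longer by 1.2-fold.

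Complex I had a median of -0.135 over its 33 members, with 24 below 0, 8 at least 1.2-fold lower and 0 at least 1.2-fold higher. Of all tested rows 56.2% were below 0, 21.9% were 1.2-fold lower and 15.7% higher, so the lower share of complex I (24.2%) was near the background. Its 7 core subunits, which carry the flavin and the iron-sulfur clusters, had a median of -0.22, with 6 below 0. Ndufs1, the core subunit with the most iron-sulfur clusters, was the lowest of the complex. It had 1749 adjusted reads with In-Cl, 1788 with DPN, 1638 with E2 and 1656 in hypoxia alone, against 2360 in control. All 4 hypoxic libraries lay below the control, and hypoxia differed from it by -0.51 (counting interval -0.60 to -0.42). Among the other core subunits, Ndufv2 was at -0.38 (interval -0.46 to -0.30). Ndufv1, which binds the flavin and takes the electrons from NADH, was at -0.26 (interval -0.36 to -0.16). Ndufs3, another core subunit, was at -0.08, with an interval of -0.19 to 0.04 that included 0.

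The accessory subunits of complex I, which surround the core and hold the complex together, did not move as a block. Of all tested rows 56.2% were below 0 and 21.9% at least 1.2-fold lower. Of the 10 Ndufb subunits, which belong to the membrane arm, 9 were below 0 with a median of -0.19, and Ndufb4 (-0.44), Ndufb6 (-0.41) and Ndufb5 (-0.39) were at least 1.2-fold lower, as was Ndufs6, a zinc-binding subunit (-0.30). Ndufb6 had 588 adjusted reads with In-Cl, 689 with DPN, 790 with E2 and 786 in hypoxia alone, against 1044 in control, so every hypoxic library was below the control. Of the 10 Ndufa subunits 5 were below 0 with a median of 0.00, and Ndufa12 (-0.35) and Ndufa2 (-0.33), both of the matrix arm, were at least 1.2-fold lower. The highest of the complex were Ndufv3, the third flavoprotein subunit, and Ndufa1, a small membrane subunit. Ndufv3 had 1262 adjusted reads with In-Cl, 1138 with DPN, 1206 with E2 and 1305 in hypoxia alone, against 1100 in control, and hypoxia lay 0.25 above control (interval 0.13 to 0.36). Ndufa1 was at 0.22 (interval 0.13 to 0.31) and Ndufa6, a matrix arm subunit, at 0.21 (interval 0.11 to 0.32), each under the 1.2-fold mark. Ndufa10 (0.00) and Ndufa10l1 (0.06) have like names, and reads of near-identical copies could be split between the 2 rows.

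Complex II, which is also the succinate dehydrogenase of the citric acid cycle, moved through 1 subunit. Sdhc, a membrane anchor that holds the heme, had 1789 adjusted reads with In-Cl, 1808 with DPN, 1788 with E2 and 1807 in hypoxia alone, against 2491 in control. The 4 hypoxic libraries were within 20 adjusted reads of one another and all lay below the control. The difference between hypoxia and control was -0.46 (interval -0.55 to -0.38). The other anchor, Sdhd, was at -0.07, the flavoprotein Sdha at -0.045 and the iron-sulfur protein Sdhb at -0.09, with intervals that included 0.

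Complex III had a median of -0.10 over 8 members, 7 of them below 0, against 56.2% of all tested rows. The 2 that were at least 1.2-fold lower were the small subunits Uqcr10 (-0.405, interval -0.56 to -0.26) and Uqcrq (-0.32, interval -0.42 to -0.23). They are 25% of the complex, near the 21.9% of all tested rows that were 1.2-fold lower. Uqcr10 had 497 adjusted reads with In-Cl, 599 with DPN, 599 with E2 and 601 in hypoxia alone, against 796 in control. The core proteins Uqcrc1 (-0.11) and Uqcrc2 (-0.12) were below 0 by their intervals, and Uqcrfs1, the Rieske iron-sulfur protein, was the highest at 0.08 (interval -0.01 to 0.18). Uqcr11 stood at -0.04.

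Complex IV, cytochrome c oxidase, had a median of 0.00 over its 9 tested members, with 4 below 0, against 56.2% of all tested rows. In each direction 1 member was at least 1.2-fold different (11.1%), against 21.9% of all tested rows lower and 15.7% higher. Cox5a, a matrix-side subunit, was the lowest. It had 1985 adjusted reads with In-Cl, 2135 with DPN, 2070 with E2 and 2061 in hypoxia alone, against 2640 in control, a difference of -0.36 between hypoxia and control (interval -0.44 to -0.28). Cox5b, which binds zinc, was at 0.00 (interval -0.07 to 0.08). Cox7a2l was the one member at least 1.2-fold higher; it resembles subunit 7a and is known to join complexes III and IV into supercomplexes. It had 3909 adjusted reads with In-Cl, 4248 with DPN, 4413 with E2 and 4404 in hypoxia alone, against 3518 in control, so all hypoxic libraries were above the control. Hypoxia lay 0.32 above control (interval 0.26 to 0.39), while the subunit Cox7a2 was at -0.05 (interval -0.14 to 0.04). Cox8a was at 0.18 (interval 0.10 to 0.26), Cox7b at -0.18 (interval -0.26 to -0.10), Cox6c at -0.15, Cox6a1 at 0.05 and Cox7c at 0.03.

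The isoforms of complex IV known from striated muscle or testis were close to the detection limit. Cox6a2, the heart and skeletal muscle form of subunit 6a, had 2 to 4 reads in every library. Cox6b2, whose counterpart Cox6b1 had no row, had 9 reads with In-Cl, 17 with DPN, 9 with E2 and 15 in hypoxia alone, against 18 in control. Cox8c had 2 reads with In-Cl, 5 with DPN, 13 with E2 and 17 in hypoxia alone, against 18 in control. These 3 and Atp5s, with 84 to 125 reads in the hypoxic libraries and 99 in control, are the 4 members outside the tested rows.

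ATP synthase had a median of -0.14 over its 16 tested members, with 14 below 0, 3 at least 1.2-fold lower and 0 at least 1.2-fold higher. The lower share of 18.8% was near the 21.9% of all tested rows, of which 15.7% were higher and 56.2% below 0. The 5 subunits of the catalytic head and central stalk were all below 0, from Atp5a1, the alpha subunit (-0.19, interval -0.23 to -0.15), to Atp5d, the delta subunit (0.00, interval -0.08 to 0.07). Atp5b, the catalytic beta subunit and the member with the most reads, had 16001 adjusted reads with In-Cl, 17114 with DPN, 17186 with E2 and 17620 in hypoxia alone, against 19389 in control. Hypoxia lay 0.14 below control for Atp5b (interval -0.17 to -0.11). The 4 subunits of the peripheral stalk, which keeps the head from turning, were also all below 0, from Atp5h (-0.22) to Atp5o (-0.07). Among the small subunits of the membrane sector, Atp5i, the e subunit known for joining ATP synthases into dimers, was the lowest of all 70 members. It had 1275 adjusted reads with In-Cl, 1472 with DPN, 1488 with E2 and 1388 in hypoxia alone, against 2026 in control, and hypoxia was 1.46-fold lower than control (interval -0.64 to -0.45 on the log2 scale). Atp5j2 was at -0.25 and Atp5l at -0.04. Atp5sl (0.12) and Atp5s match the symbol rule but are listed by RefSeq as Dmac2 and Dmac2l and are not subunits of ATP synthase.

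The ring of c subunits, which turns as protons pass, held genes on both sides of the control. In mammals 3 genes, Atp5g1, Atp5g2 and Atp5g3, encode the same mature c subunit with different import sequences. Atp5g2 had 5625 adjusted reads with In-Cl, 6422 with DPN, 6285 with E2 and 6685 in hypoxia alone, against 5704 in control. Its hypoxia level was 0.23 above control (interval 0.18 to 0.28), and only the In-Cl library was below the control. Atp5g1 had 1196 adjusted reads with In-Cl, 1419 with DPN, 1327 with E2 and 1606 in hypoxia alone, against 2003 in control, a difference of -0.32 between hypoxia and control (interval -0.41 to -0.23). Atp5g3 had 2545 adjusted reads with In-Cl, 2863 with DPN, 2508 with E2 and 2924 in hypoxia alone, against 3670 in control, a difference of -0.33 (interval -0.40 to -0.26). Both were below the control in all 4 hypoxic libraries.

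Set against one another within a library, which no scaling can change, Atp5g2 took 60.1% of the reads of the 3 genes with In-Cl, 60.0% with DPN, 62.1% with E2 and 59.6% in hypoxia alone, against 50.1% in control. The exact 95% intervals were 58.7 to 60.5 in hypoxia and 49.3 to 51.0 in control, and all 4 hypoxic libraries lay above the control. The E2 interval, 61.1 to 63.1, lay above those of the other hypoxic libraries. The sum of the 3 genes was 0.02 lower in hypoxia than in control on the log2 scale, with an interval of -0.06 to 0.02 that includes 0. With In-Cl the sum was 0.28 below control (interval -0.32 to -0.24).

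**Figure D2:**
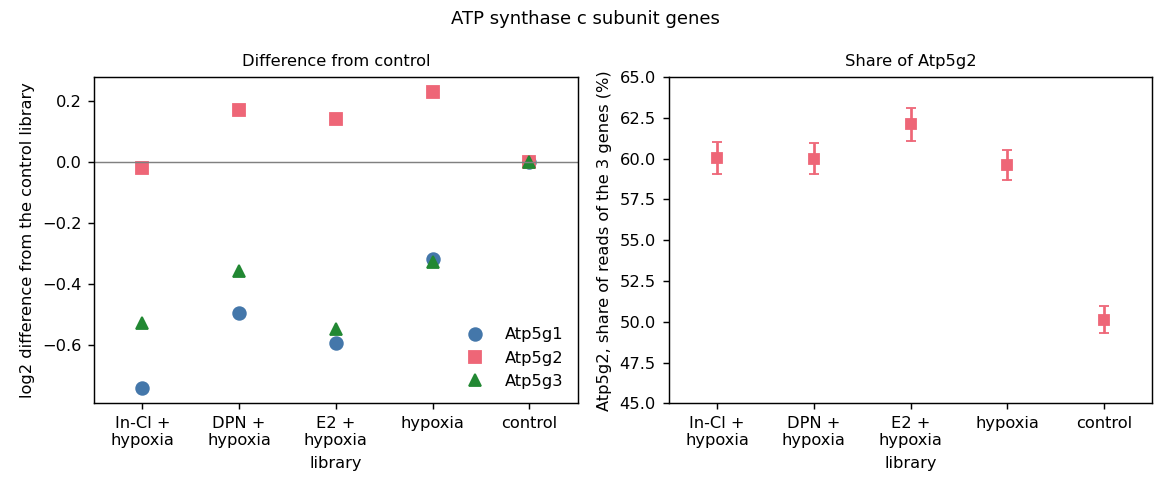
Left, log2 difference of the 3 c subunit genes from the control library (vertical axis) in each library (horizontal axis). Right, Atp5g2 as a percentage of the approximate reads of the 3 genes, with 95% exact intervals for counting error and an axis that starts at 45; the 4 hypoxic libraries lie between 59.6% and 62.1%, above the control at 50.1%.

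The promoters of the 3 c subunit genes are shown because these genes differ in direction while coding for the same mature protein. Each line gives the 250 bases before the transcription start in the RefSeq table (build GRCr8, not the build rn6 of the reads), 5′ to 3′ on the gene's strand, and capitals mark the motifs searched on both strands: CGCATGCG (the core bound by NRF1, a regulator of mitochondrial genes), CCGGAAG (ETS factors), ACGTG (the core of hypoxia response elements, also part of the E-box CACGTG) and AAGATGGC (YY1). A match may overlap another.
Atp5g1, GRCr8 chr10:81523346-81523595, minus strand: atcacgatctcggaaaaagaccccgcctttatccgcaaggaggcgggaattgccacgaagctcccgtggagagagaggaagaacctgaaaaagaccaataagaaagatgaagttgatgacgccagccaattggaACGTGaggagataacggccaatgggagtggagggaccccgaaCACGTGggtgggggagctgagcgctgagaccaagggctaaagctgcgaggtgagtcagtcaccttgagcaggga
Atp5g2, GRCr8 chr7:135678219-135678468, minus strand: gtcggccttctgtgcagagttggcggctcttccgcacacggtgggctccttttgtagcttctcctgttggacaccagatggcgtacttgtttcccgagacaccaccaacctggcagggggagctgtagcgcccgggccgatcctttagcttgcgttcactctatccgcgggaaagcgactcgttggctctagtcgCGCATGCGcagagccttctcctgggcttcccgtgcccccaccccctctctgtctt
Atp5g3, GRCr8 chr3:79220665-79220914, minus strand: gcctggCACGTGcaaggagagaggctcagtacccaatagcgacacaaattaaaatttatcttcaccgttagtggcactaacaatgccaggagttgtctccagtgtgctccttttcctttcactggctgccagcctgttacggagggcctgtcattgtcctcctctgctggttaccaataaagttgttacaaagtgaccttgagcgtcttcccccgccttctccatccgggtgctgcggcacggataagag

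Atp5g1 holds 1 ACGTG and, nearer to the start, CACGTG, where the motif reads the same on both strands. Atp5g3 holds CACGTG near the far end of the window, and Atp5g2 holds CGCATGCG and no ACGTG. These are matches of letters, not sites shown to be used. In windows from 250 bases before to 50 after the start, 64 of the 74 members could be matched, by symbol or synonym. CGCATGCG was in 7 of the 64 (10.9%), against 2.23% of 18999 protein-coding promoters, and 5 of the 7 belong to ATP synthase (Atp5o, Atp5j, Atp5g2, Atp5i and Atp5l). CCGGAAG was in 28.1% of members, against 11.2% of promoters, and AAGATGGC in 21.9%, against 3.92%. ACGTG was in 28.1% of members, against 20.4% of promoters. The promoters compared with are those of all protein-coding genes, whether or not they had reads here, and not those of the tested rows. Whether the shares are particular to the members was not tested. Both the lowest and the highest member in hypoxia against control hold ACGTG: Atp5i, which holds all 4 motifs, and Cox7a2l, which holds that one alone.

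At least 1.2-fold lower than the control in all 4 hypoxic libraries were 12 of 70 members, against 13.9% of all tested rows, so their share was near the background. They were Ndufv2, Ndufs1, Ndufa2, Ndufa12 and Ndufb6 of complex I, Sdhc of complex II, Uqcrq and Uqcr10 of complex III, Cox5a of complex IV, and Atp5g1, Atp5g3 and Atp5i of ATP synthase. Every complex has at least 1 gene among them. The 4 comparisons share the control library, so they are not separate evidence. By single library, 44 members (62.9%) were at least 1.2-fold lower than control with In-Cl, against 26.9% of all tested rows. With DPN 22 members (31.4%) were lower, against 22.2%, and with E2 23 (32.9%), against 22.7%.

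Some lists of genes around the chain that the symbol rule leaves out also differed between hypoxia and control. Beside them, 56.2% of all tested rows were below 0, 21.9% at least 1.2-fold lower and 15.7% at least 1.2-fold higher. Of the citric acid cycle enzymes, which feed the chain with NADH and succinate, 12 of 12 were below 0 and 9 were at least 1.2-fold lower, with a median of -0.31 and Ogdh, of the 2-oxoglutarate dehydrogenase, lowest at -0.65. Of 17 tested carriers and subunits outside the rule 10 were below 0, with 7 at least 1.2-fold lower and 3 higher. Among them the ADP/ATP exchanger Slc25a5 was at -0.69 and Cyc1, the cytochrome c1 of complex III, at -0.41, whereas the exchanger Slc25a4 was at 0.00. Ndufab1, the acyl carrier protein of complex I, was at -0.43 and Atpif1, the inhibitor of ATP synthase, at -0.485. The 3 higher ones were Ndufa4l2, with 490 reads in hypoxia and 0 in control, Higd1a, a hypoxia-inducible protein of complex IV, at 3.54, and Dhodh at 1.45. Cox4i2, another form of subunit 4 and outside the tested rows, had 372 reads in hypoxia and 21 in control. Of 21 tested assembly factors 16 were below 0, with a median of -0.15 and Acad9, which assembles complex I, lowest at -0.58. At least 1.2-fold lower were 4 of them (19%), near the share of all tested rows. Of 9 tested regulators of mitochondrial biogenesis 6 were below 0 with a median of -0.02. The 2 that were at least 1.2-fold lower (22.2%, near the share of all tested rows) were Gabpb1 (-0.47) and Tfb2m (-0.46). Nrf1 was at 0.18, and Ppargc1a had 2 reads in hypoxia and 0 in control. Mitochondrial ribosomal proteins had a median of -0.21 with 49 of 61 below 0, while cytosolic ribosomal proteins had a median of 0.21 with 3 of 79 below 0.

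**Figure D3:**
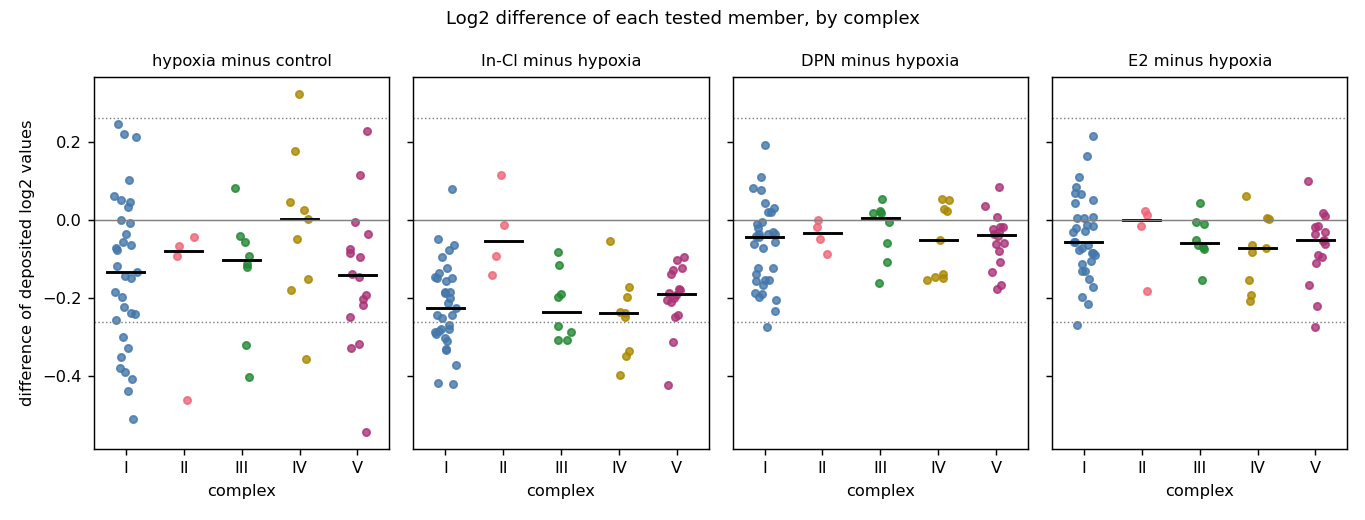
Log2 difference (vertical axis) of each tested member, by complex (horizontal axis), in the 4 comparisons, with black bars at the medians and dotted lines at a 1.2-fold difference. In hypoxia minus control the points spread from -0.545 (Atp5i) to 0.32 (Cox7a2l), and in In-Cl minus hypoxia all but 2 lie below 0.

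With In-Cl, the compound named in the study's title, nearly all members were lower than in hypoxia alone. The median difference was -0.20, beside -0.01 over all tested rows, and 68 of 70 members were below 0 (97.1%), against 52.7% of all tested rows. At least 1.2-fold lower were 22 members (31.4%), against a background of 9.2%, and 0 were at least 1.2-fold higher, against 11.1%. At 1.5-fold 0 members were lower, where only 0.194% of all tested rows were. After division by library sums 64 of 70 were below 0, against 39.2% of all tested rows under that scaling. The median was then -0.13 with 8 lower by 1.2-fold, against 4.09%.

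The difference was seen in 4 of the 5 complexes. Of all tested rows 52.7% were below 0 in this comparison. Complex I had a median of -0.23 with 32 of 33 below 0, and complex III -0.24 with 8 of 8. Complex IV had a median of -0.24 with 9 of 9 below 0, and ATP synthase -0.19 with 16 of 16. Complex II stood nearer to 0 with a median of -0.05 and 3 of 4 below 0. Sdha had 2326 adjusted reads with In-Cl, against 2147 in hypoxia alone, and was the highest member at 0.115 (interval 0.03 to 0.20). Sdhc was at -0.01 and Sdhb at -0.14. The other member above 0 was the core subunit Ndufs1 (0.08, interval -0.02 to 0.18), so Sdhc and Ndufs1, which were among the lowest in hypoxia against control, were not among the lower ones here.

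The lowest members with In-Cl were Atp5g1, Ndufa2, Ndufb6 and Cox5b. Atp5g1 had 1196 adjusted reads with In-Cl, against 1606 in hypoxia alone, and was 1.34-fold lower. For Ndufa2 the values were 711 with In-Cl and 953 in hypoxia alone, a difference of -0.42 (interval -0.57 to -0.28). Ndufb6 was at -0.42 (interval -0.58 to -0.26), and Cox5b had 2027 adjusted reads with In-Cl, against 2673 in hypoxia alone, a difference of -0.40 (interval -0.48 to -0.31). In complex III the lowest were Uqcrc1 and Uqcrq (both -0.31), and in complex IV Cox8a (-0.35) and Cox6a1 (-0.34) followed Cox5b. Atp5d was at -0.31 and Ndufa5, a matrix arm subunit, at -0.37 (interval -0.47 to -0.28). Closer to 0 were Cox5a (-0.05), Uqcrc2 (-0.08), Atp5a1 (-0.09) and Ndufv3 (-0.05). Outside the tested rows, Atp5s, which is no subunit, was at 0.50 (interval 0.09 to 0.92; 125 reads with In-Cl against 84 in hypoxia alone), and Cox8c at -2.65 on 2 reads with In-Cl against 17.

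Some other sets of genes moved with the members in the In-Cl library, where 52.7% of all tested rows were below 0 against hypoxia alone. Cytosolic ribosomal proteins were below 0 in 79 of 79 cases, with a median of -0.25, and mitochondrial ribosomal proteins in 56 of 61, with a median of -0.17. The citric acid cycle enzymes were below 0 in 6 of 12 cases, with a median of 0.01, and the assembly factors in 13 of 21, with a median of -0.07. The biogenesis regulators were below 0 in 2 of 9 cases, with a median of 0.05. Cox4i1, the common form of subunit 4, was at -0.26, and Ndufa4, counted today with complex IV, at -0.40. The part of the ribosomal protein genes in the members' difference was not tested, and with 1 library the compound and the library cannot be told apart.

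**Figure D4:**
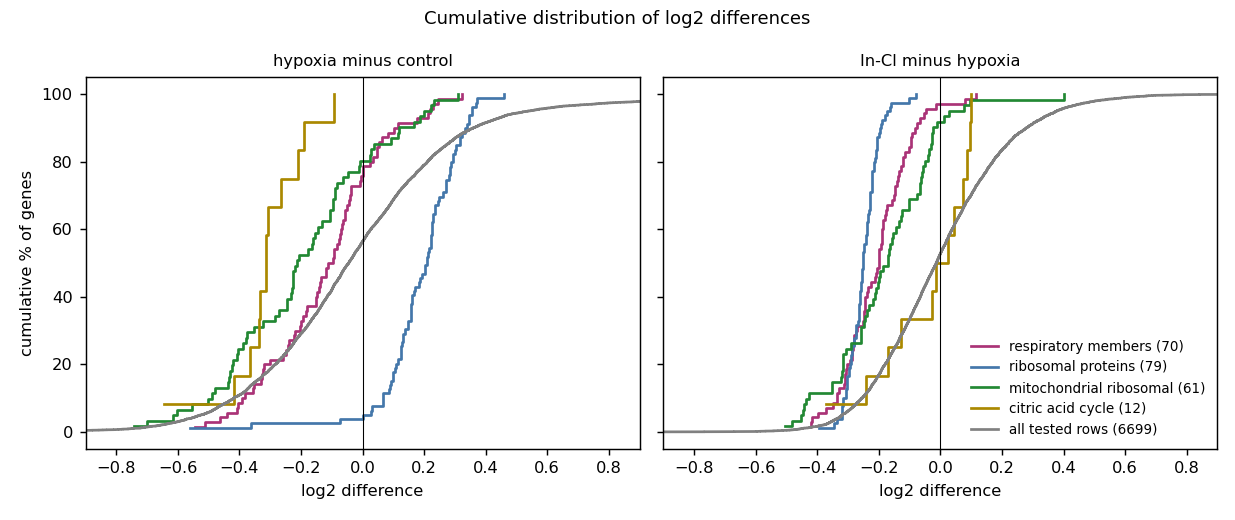
Cumulative percentage of genes (vertical axis) against the log2 difference (horizontal axis) for hypoxia minus control, left, and In-Cl minus hypoxia, right; lines stand for the 70 members, 3 other gene lists and all 6699 tested rows, with values beyond 0.9 cut off. The members follow the citric acid cycle enzymes only part of the way to the left in hypoxia, and lie close to both ribosomal lists in the In-Cl panel.

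DPN against hypoxia and E2 against hypoxia ask the same of the other 2 compounds, and the members differed little from hypoxia alone. With DPN the median was -0.04, with 50 of 70 members below 0, against 49.9% of all tested rows. Division by library sums ends that direction from 0, with a median of 0.00 and 35 of 70 below 0, against 37.2% of all tested rows under that scaling. The members' distance to the general median, -0.04, is unchanged by such a shift. Only 1 member was at least 1.2-fold lower (background 2.84%), and 0 were higher (background 3.45%). That member was Ndufa11, of the membrane arm of complex I, with 1110 adjusted reads with DPN against 1345 in hypoxia alone and a difference of -0.28 (interval -0.40 to -0.16). Ndufs3 (-0.23), Ndufa7 (-0.20) and Ndufv3 (-0.20) followed, and Ndufb4 was highest at 0.19 (interval 0.05 to 0.34). By complex the medians ran from -0.05 (complex IV) to 0.01 (complex III).

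With E2 the median was -0.055, with 50 of 70 below 0, against 49.9% of all tested rows. After division by library sums the median was -0.007, with 38 of 70 below 0, against 36.5%. At least 1.2-fold lower were 2 members (background 2.72%), and 0 were higher (background 4.7%). They were Atp5g1 (-0.275, interval -0.38 to -0.17) and Ndufb10, of the membrane arm of complex I (-0.27, interval -0.38 to -0.16). Atp5g3 (-0.22, interval -0.30 to -0.14) and Ndufa2 (-0.22) came next, and Ndufb5 was highest at 0.22 (interval 0.11 to 0.32). Complex II had a median of 0.00 and complex IV -0.07.

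In-Cl and DPN were given at the same dose, so the 2 libraries can be set against each other. Members were lower with In-Cl than with DPN in 66 of 70 cases, against 53.3% of all tested rows, with a median of -0.17. Of these 9 were at least 1.2-fold lower (12.9%), against 4.25%. Ndufb4 (-0.35) and Ndufa5 (-0.34) differed most, with 715 and 1511 adjusted reads with In-Cl against 912 and 1909 with DPN. Between DPN and E2, given at different doses, the members' median differences from hypoxia stand side by side at -0.04 and -0.055, and their own difference had a median of 0.00 with quartiles of -0.07 and 0.05. Of 70 members 0 were 1.2-fold apart between these 2 libraries, where 2.7% of all tested rows were lower and 2.52% higher with DPN.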

How the data were processed

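RNA was measured in 5 rat cell libraries, 1 per condition; per the labels' protocols, total RNA was taken with Trizol and a strand-keeping SMARTer kit was used. Per the submitters' processing notes, the tools and build were TopHat, edgeR and rn6. How genes were counted, with which annotation, strand setting and versions, and how reads with several matches were treated is not given in the sources used here. Deposited by the authors was 1 log2 value per gene symbol and library (17048 rows), and the linear values (2 to the power of the log2 value, minus 1) look like counts adjusted to a common library size.

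Approximate reads are linear values divided by each library's step, the value worth 1 read, found from values up to 2.5 reads; 91.1% of these in control, the lowest share, lay within 0.2 of a whole number. Differences of these log2 values were used, with no count model. Differences, exact intervals and counts were computed with Python 3.11.15, numpy 2.4.6, pandas 2.3.3 and scipy 1.17.1, and the step and intervals were tested on simulated data. The members and gene lists were chosen with earlier results of these data known. Genes were named as the 2 highest and 2 lowest of each complex per comparison, members past 1.2-fold in all libraries of a kind, isoforms, and members outside the tested rows; Ndufa5, Ndufa7, Uqcr11 and other members given for their role or as neighbours in rank were added after their values were seen. Likeness of pattern to other genes was not computed, because 5 libraries are too few for a correlation, and the most and least abundant members are not ranked, because no gene lengths were used. A single member of complex I enters the counts and medians but is not reported here by name.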

Additional observations from a re-analysis of the deposited data

Results flagged for a closer look

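Among the 70 tested members, Ndufb4 and Ndufb5, both of the membrane arm of complex I, lay on opposite sides of hypoxia in different compound libraries. Their counting intervals on both sides leave out 0. The share of all tested rows that did the same was not computed, so whether this is unusual is not known. Adjusted reads of Ndufb4 were 715 in the In-Cl library, 912 in the DPN library and 894 in the E2 library, against 797 in hypoxia alone. Its log2 difference from hypoxia was -0.16 for In-Cl (interval -0.31 to -0.01), 0.19 for DPN and 0.16 for E2. Ndufb5 had 1398 adjusted reads with In-Cl and 1768 with E2, against 1522 in hypoxia alone, with differences of -0.12 (interval -0.23 to -0.02) and 0.22. The In-Cl intervals barely leave out 0: division by library sums shifts all genes by 0.07 in that comparison and median centring by 0.014, and the first takes both In-Cl intervals across 0, the second that of Ndufb4. With 1 library each, the difference between compounds was not tested, and all 3 comparisons share the hypoxia library.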

How the results depend on the processing

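Of 16 main values (the median, the number below 0 and the numbers past 1.2-fold, in 4 comparisons), 15 were little changed by quantile normalization, 14 by median centring and 16 by summing rows per symbol. The number of members below 0 stayed within 1.5 times under every alternative run. With division by library sum the median became -0.25 for hypoxia against control (34 lower, 0 higher) and -0.13 for In-Cl against hypoxia (8 lower). For DPN it became 0.00 (0 lower), so its direction from 0 was lost, and for E2 -0.007 (0 lower, 1 higher). Of all tested rows 39.5% were then lower and 8.24% higher for hypoxia against control, and 4.09% lower for In-Cl. For DPN 1.61% were lower, and for E2 1.72% were lower and 7.7% higher. The medians of complexes II (0.008) and V (0.003) with DPN and of complex II with E2 (0.047) turned positive. That scaling shifts all genes by 0.07 for In-Cl against hypoxia and by 0.04 and 0.05 for DPN and E2. Median centring gave a hypoxia median of -0.059 with 4 members higher, against 19.3% of all tested rows. Quantile normalization gave 2 higher, against 17.2%. Without the abundance filter 2 members were higher with In-Cl, 3 lower with DPN and 4 lower with E2. Of the 13397 rows then counted, 20.1% were higher with In-Cl, 14.5% lower with DPN and 14.6% lower with E2. Raising all values below 3 reads to 3 gave 2, 2 and 4, against 16.4%, 10.6% and 10.3%. The members added are among the 4 outside the tested rows. At 1.5-fold 0 members were lower in these 4 comparisons and 0 higher in hypoxia against control; against control, 1.5-fold was passed in the In-Cl, DPN and E2 libraries, as by Ndufb6 with In-Cl (1.77-fold lower). With another hypoxic library in place of hypoxia, the median against control was -0.32 with In-Cl (44 lower, 0 higher), -0.16 with DPN and -0.17 with E2 (23 lower). The cause was not tested. The background limited to short proteins was not run, since no table of protein lengths was used here. No paired analysis was possible because each condition has 1 library; for the same reason no replicate could be left out. Counting intervals included 0 for 43 of 70 members with DPN and 48 with E2, against 10 with In-Cl and 26 in hypoxia against control. Where an interval includes 0, the direction of the difference is not settled at this depth.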
